A study of Mus musculus with 11 samples.

Results

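The receptors described here are 6 non-chemokine chemoattractant receptors of mouse macrophages: the formyl peptide receptors Fpr1 and Fpr2, the complement receptors C5ar1 and C3ar1, the leukotriene B4 receptor Ltb4r1 and the platelet-activating factor receptor Ptafr. They were picked by name, with earlier results of these libraries known, and are 6 of 42375 named genes in the count table. All 6 passed the filter on low counts, which kept 15024 genes. RNA was sequenced from bone marrow derived macrophages of C57BL/6 mice, cells grown out of marrow precursors, after 16 h with a gapmer, a short antisense DNA with modified ends that lets RNase H cut its matching RNA. Of the 11 libraries, 2 came from M1 cells with the MERRICAL gapmer (M1 KD, replicates 5 and 6) and 3 from M1 cells with the control gapmer labelled NS (M1 NS, replicates 1, 2 and 4). Another 3 came from M0 cells with the MERRICAL gapmer (M0 KD, replicates 1, 2 and 4) and 3 from M0 cells with the NS gapmer (M0 NS, replicates 1, 2 and 4). M0 is the resting state and M1 the classically activated one. The sources used here do not give the stimulus behind the M1 label, the number of animals or the meaning of the replicate numbers. MERRICAL is a long noncoding RNA, no gene of the table carries its name, and its level was not analysed here.

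These receptors span the membrane several times and couple mainly to G proteins of the Gi class. Ligand binding frees the G protein beta-gamma subunits, which activate phosphoinositide 3-kinase gamma and phospholipase C beta, and the cell moves up the gradient, releases granules and makes oxidants. Fpr1 recognises N-formylated peptides of bacteria and mitochondria. Fpr2 takes a wider range of ligands, including serum amyloid A, annexin A1 peptides and cathelicidin. C5ar1 and C3ar1 bind the complement fragments C5a and C3a, Ltb4r1 is the high-affinity receptor of the lipid leukotriene B4, and Ptafr binds the phospholipid PAF. Neutrophils carry several of them at high levels.

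In the GENCODE M21 annotation of GRCm38, Fpr1 (ENSMUSG00000045551.7, chr17:17876471-17883940, minus strand) and Fpr2 (ENSMUSG00000052270.7, chr17:17887824-17893952, plus strand) lie head to head with 3883 bases between their starts. C3ar1 (ENSMUSG00000040552.8) lies at chr6:122847138-122856161 on the minus strand and C5ar1 (ENSMUSG00000049130.6) at chr7:16246743-16259540 on the minus strand. Ltb4r1 (ENSMUSG00000046908.5) lies at chr14:55765962-55768494 on the plus strand and Ptafr (ENSMUSG00000056529.7) at chr4:132564067-132582683 on the plus strand. C5ar1 has 3 exons after merging its transcripts, and each of the other 5 has 2. The counts may come from another annotation. The 250 bases before the RefSeq start (GRCm38.p6) are shown for the divergent neighbours Fpr1 and Fpr2, which were both higher in M1 NS than in M0 NS, and for C3ar1, which was lower. They are read 5′ to 3′ on the strand of the gene, at chr17:17883940-17884189 for Fpr1, chr17:17887574-17887823 for Fpr2 and chr6:122856158-122856407 for C3ar1, and capitals mark matches to the motifs named after them.
Fpr1: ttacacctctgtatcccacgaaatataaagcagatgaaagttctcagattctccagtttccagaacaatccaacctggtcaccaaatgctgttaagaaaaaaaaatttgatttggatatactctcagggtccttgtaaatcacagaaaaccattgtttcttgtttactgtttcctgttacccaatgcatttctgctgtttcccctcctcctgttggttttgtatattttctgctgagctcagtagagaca
Fpr2: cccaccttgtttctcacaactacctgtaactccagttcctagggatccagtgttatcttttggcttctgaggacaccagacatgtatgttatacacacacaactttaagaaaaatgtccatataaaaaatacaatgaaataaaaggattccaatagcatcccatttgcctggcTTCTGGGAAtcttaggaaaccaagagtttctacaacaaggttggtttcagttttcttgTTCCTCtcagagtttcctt
C3ar1: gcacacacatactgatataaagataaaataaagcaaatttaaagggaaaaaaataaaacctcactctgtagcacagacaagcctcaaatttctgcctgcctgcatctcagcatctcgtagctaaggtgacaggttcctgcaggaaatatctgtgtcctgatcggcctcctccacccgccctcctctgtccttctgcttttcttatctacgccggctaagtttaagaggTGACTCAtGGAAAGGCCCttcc
Both strands of the 300 bases from 250 before to 50 after the start were searched for 7 short motifs. They were GAGGAA (the PU.1 core), TGANTCA (AP-1), an NF-kappaB motif, TTGCNNAA (C/EBP), TTCNNNGAA (STAT), an IRF motif and GCGNGGGCG (EGR). Fpr2 held a STAT match at -77 and a PU.1 match at -19, and C3ar1 an AP-1 match at -22 and an NF-kappaB match at -14, counted from the start. Ltb4r1 held 2 PU.1 matches and Ptafr 1, and these letters were not in the windows of Fpr1 and C5ar1. The C5ar1 window (chr7:16259289-16259588) lies mostly inside the gene as GENCODE places it, since its GENCODE start is further upstream. Among all 32851 RefSeq promoters of this length, 28.3% held the PU.1 letters, 7.81% those of AP-1, 1.63% those of NF-kappaB and 8.30% those of STAT. The shares were 10.8% for C/EBP, 3.44% for IRF and 5.55% for EGR.

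The libraries held 30040632 to 43250392 reads assigned to named genes. Levels are given as CPM, counts scaled by library total and TMM factor, and errors are SD over libraries. Each of the 12 macrophage markers lay above 1 CPM in every group, with sums of 17489 to 20369 CPM in M1 KD, 17107 to 20492 CPM in M1 NS, 21263 to 23423 CPM in M0 KD and 28245 to 28775 CPM in M0 NS. Lyz2 was the largest part of each sum, at means of 7256 CPM in M1 KD, 5639 CPM in M1 NS, 13186 CPM in M0 KD and 17460 CPM in M0 NS. In M1 NS against M0 NS, 6 of the 12 were called higher and 4 lower, with a median log2 fold change of 0.44. All 10 M1 activation markers rose in M1 NS against M0 NS and in M1 KD against M0 KD, with a summed level of 24304 to 24953 CPM in M1 KD, 20496 to 23074 CPM in M1 NS, 269 to 391 CPM in M0 KD and 270 to 480 CPM in M0 NS. Gbp2 was the largest part of the M1 sums, at means of 8821 CPM in M1 KD and 6725 CPM in M1 NS. In M1 KD against M1 NS, 1 of the 10 was called higher and 4 were called lower, with a median log2 fold change of -0.15. None of the 20 neutrophil and granulocyte precursor markers was at 0 in any group, and they summed to 397 to 430 CPM in M1 KD, 363 to 462 CPM in M1 NS, 893 to 927 CPM in M0 KD and 1537 to 2545 CPM in M0 NS. Most of that sum in M1 cells was Lcn2 and Csf3r. Their means were 151 and 188 CPM in M1 KD, 136 and 131 CPM in M1 NS, 49.3 and 104 CPM in M0 KD and 119 and 147 CPM in M0 NS. In M1 NS against M0 NS, 17 of the 20 were called lower and 0 higher. The summed dendritic cell markers were 131 to 610 CPM in M1 KD, 107 to 338 CPM in M1 NS, 7.15 to 14.7 CPM in M0 KD and 11.6 to 12.4 CPM in M0 NS. Ccr7 carried this sum, at means of 347 CPM in M1 KD, 229.7 CPM in M1 NS, 0.962 CPM in M0 KD and 1.197 CPM in M0 NS. Of the 7 dendritic cell markers, 4 were called higher in M1 NS than in M0 NS, while Flt3, Siglech and Cd209a were called lower. Beside Ccr7, those called higher were Xcr1, Clec9a and Zbtb46. Their means were 8.97, 5.81 and 2.06 CPM in M1 NS, against 0.516, 1.09 and 0.960 CPM in M0 NS. Stromal markers summed to 53.1 to 96.4 CPM in M1 KD, 36.3 to 55.4 CPM in M1 NS, 9.31 to 25.0 CPM in M0 KD and 13.1 to 36.6 CPM in M0 NS. Most of that sum in M1 cells was Pecam1, at means of 71.2 CPM in M1 KD, 42.95 CPM in M1 NS, 6.99 CPM in M0 KD and 9.78 CPM in M0 NS, while Col1a1 was called lower in M1 NS than in M0 NS. Lymphocyte markers summed to at most 1.31 CPM in any library, with Klrb1c at 0 in M1 NS. Mast cell, basophil and eosinophil markers reached 3.38 CPM in M1 KD, 6.02 CPM in M1 NS, 13.2 CPM in M0 KD and 17.8 CPM in M0 NS, with Fcer1a at 0 in both M1 groups. In bulk RNA, fewer cells of a type and less RNA per cell cannot be told apart.

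M1 NS cells were set against M0 NS cells to see how these receptors differ between the states when MERRICAL is not targeted. Both formyl peptide receptors were higher in M1 NS, both complement receptors and Ltb4r1 were lower, and Ptafr did not pass the test. Fpr1 stood at 126, 122 and 254 CPM in M1 NS, against 7.10, 7.40 and 5.35 CPM in M0 NS. Fpr2 stood at 259, 228 and 512 CPM in M1 NS, against 14.8, 17.2 and 7.90 CPM in M0 NS. Replicate 4 was the highest M1 NS library for both genes and the lowest M0 NS library for both, and the ranges were far apart. The level of M1 NS replicate 4 over the mean of the other 2 M1 NS libraries was 2.04 for Fpr1, 2.10 for Fpr2, 1.44 for C5ar1, 1.15 for C3ar1, 0.791 for Ltb4r1 and 1.02 for Ptafr. Fpr2 rose 25.1-fold (log2 fold change 4.65, SE 0.40, adjusted p = 1.18e-06, edgeR quasi-likelihood test). The log2 fold change of Fpr1 was 4.66 (SE 0.34), given without a p because values of Fpr1 and Ltb4r1 in comparisons that use these libraries were known when the receptors were picked. Since the receptors were picked with results of such comparisons known, the p-values of the others are not free of that choice either.

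C5ar1 stood at 33.7, 37.8 and 51.6 CPM in M1 NS, against 303, 322 and 313 CPM in M0 NS. C5ar1 fell 7.62-fold (log2 fold change -2.93, SE 0.17, adjusted p = 6.47e-08, edgeR). C3ar1, the other anaphylatoxin receptor, also fell: it was at 607, 485 and 626 CPM in M1 NS, against 1001, 1126 and 874 CPM in M0 NS (log2 fold change -0.80, SE 0.17, adjusted p = 0.00161, edgeR). The 2 groups did not overlap for either gene. Ltb4r1 was low throughout, at 0.980, 0.831 and 0.717 CPM in M1 NS, against 6.80, 6.46 and 10.7 CPM in M0 NS (log2 fold change -3.24, SE 0.26). Its M1 NS values rest on 35, 21 and 25 reads, and the exact Poisson interval (95%) of the library with 21 reads runs from 13.0 to 32.1 reads, for counting error only. The neutrophil markers moved with Ltb4r1, C5ar1 and C3ar1, and against Fpr1 and Fpr2. Of the 20 markers, 17 fell in M1 NS against M0 NS, with a median log2 fold change of -3.53. Their part in these results was not tested.

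Ptafr measured 297, 301 and 307 CPM in M1 NS, against 396, 396 and 286 CPM in M0 NS. Replicate 4 of M0 NS lay below all 3 M1 NS libraries and the other 2 lay above them. The log2 fold change was -0.25 (95% interval -0.53 to 0.03, adjusted p = 0.156, edgeR). Without M0 NS replicate 4 it was -0.39 (adjusted p = 0.0212, edgeR), and with scaling by library size only -0.63 (adjusted p = 0.00193, edgeR). In all, 5 of the 6 receptors were called at an adjusted p under 0.05, 2 higher and 3 lower, where 55.5% of all tested genes were called. That count holds Fpr1 and Ltb4r1, which are given without a p, so nothing is read from it. The ranges of 5 did not overlap, against 61.4% of all genes. The median log2 fold change was -0.53 over the receptors and -0.04 over all genes.

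**Figure D1:**
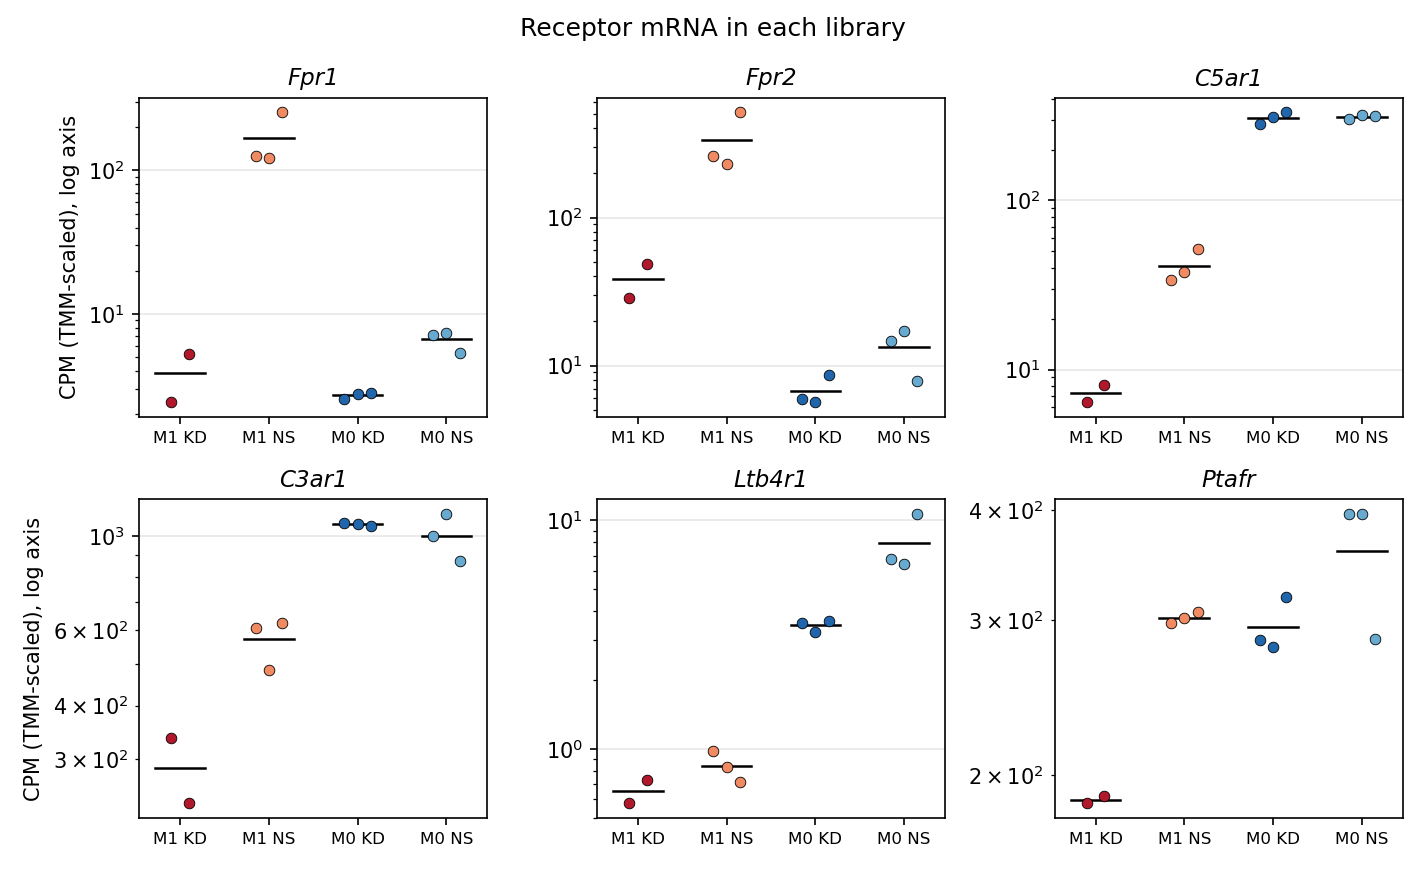
Level of each receptor in every library, in CPM on a log axis, by group; points are libraries and bars are group means. Fpr1 and Fpr2 peak in M1 NS, and C5ar1, C3ar1 and Ltb4r1 have their higher values in the M0 groups.

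M1 KD cells were set against M1 NS cells to see how the receptors differ when MERRICAL is targeted in activated macrophages. M1 KD shares no replicate number with the other groups. Comparisons with it cannot tell the gapmer or the state apart from what those numbers stand for. All 6 receptors were lower on average in M1 KD, and the formyl peptide receptors and C5ar1 by the most. The receptors were picked with results of this comparison and of its M0 counterpart known, so their values in both, and in the difference between both, are a description without a p. Fpr1 was at 2.41 and 5.27 CPM in M1 KD, from 88 and 144 reads, against 126, 122 and 254 CPM in M1 NS. Its log2 fold change was -5.47 (SE 0.43), which is 44.2-fold lower in M1 KD and rank 20 from the lowest among the 15024 genes. The 2 M1 KD libraries differ from each other, and without replicate 6 the log2 fold change was -6.12. Over the fits with 1 library left out, that of Fpr1 ran from -6.12 to -5.00. Fpr2 was at 28.8 and 48.2 CPM in M1 KD, against 259, 228 and 512 CPM in M1 NS (log2 fold change -3.12, SE 0.43, 8.67-fold lower in M1 KD).

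C5ar1 was at 6.42 and 8.16 CPM in M1 KD, against 33.7, 37.8 and 51.6 CPM in M1 NS (log2 fold change -2.49, SE 0.20, 5.64-fold lower in M1 KD). C3ar1 was at 335 and 236 CPM in M1 KD, against 607, 485 and 626 CPM in M1 NS (log2 fold change -1.01, SE 0.20). Ptafr was at 186 and 189 CPM in M1 KD, against 297, 301 and 307 CPM in M1 NS (log2 fold change -0.69, SE 0.16). In each of these the highest M1 KD library lay below the lowest M1 NS library. Ltb4r1 overlapped, at 0.576 and 0.731 CPM in M1 KD, from 21 and 20 reads, against 0.980, 0.831 and 0.717 CPM in M1 NS. Its log2 fold change was -0.38 (95% interval -1.001 to 0.25). The ranges of 5 receptors did not overlap, all lower in M1 KD, where 52.4% of all genes did not overlap and 26.3% were apart and lower in M1 KD. Nothing is read from that count, since the receptors were picked with results of this comparison known. The median log2 fold change was -1.75 over the receptors and 0.00 over all genes. The neutrophil markers had a median log2 fold change of -0.08 in this comparison, with 3 of 20 called higher and 6 called lower.

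**Figure D2:**
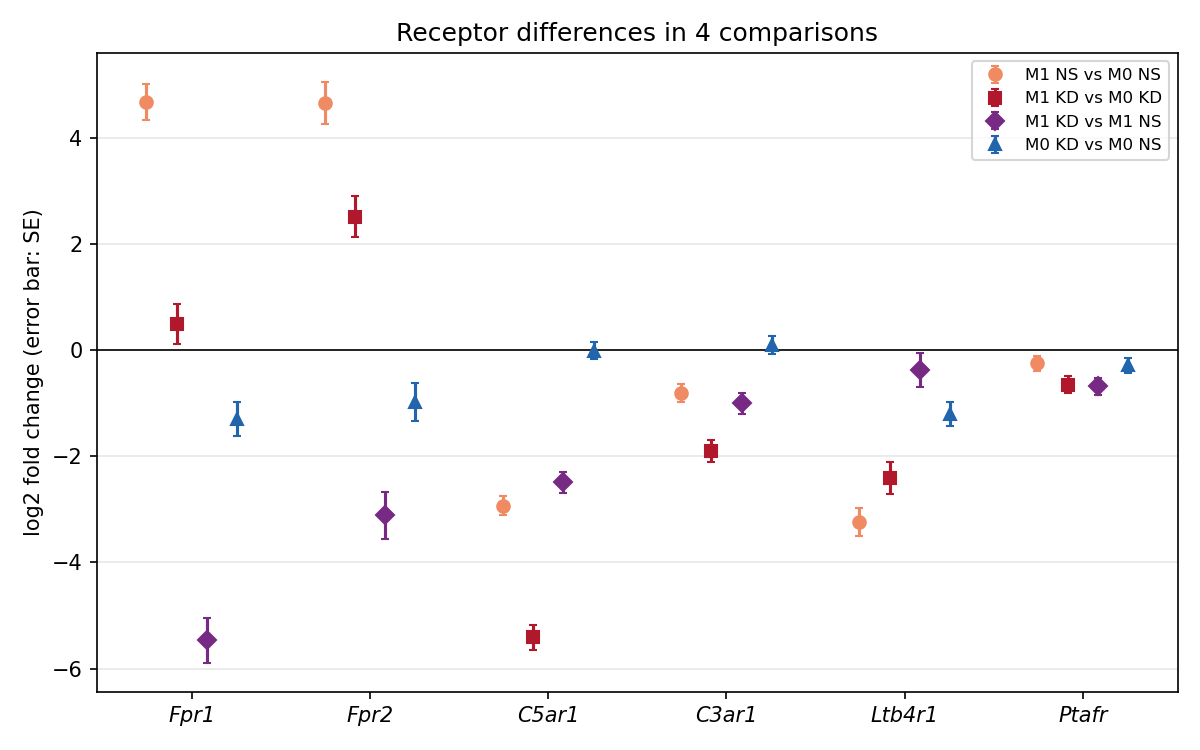
Log2 fold change of each receptor in the 4 comparisons, with error bars of 1 SE. The values of M1 KD against M1 NS lie below 0 for all 6, from -5.47 for Fpr1 to -0.38 for Ltb4r1.

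In resting cells the same gapmer went with smaller differences for 5 receptors and a larger one for Ltb4r1. Fpr1 was at 2.55, 2.75 and 2.80 CPM in M0 KD, against 7.10, 7.40 and 5.35 CPM in M0 NS (log2 fold change -1.29, SE 0.32). Ltb4r1 was at 3.55, 3.23 and 3.63 CPM in M0 KD, against 6.80, 6.46 and 10.7 CPM in M0 NS (log2 fold change -1.20, SE 0.23). For these 2 genes every M0 KD library lay below every M0 NS library. Fpr2 was at 5.91, 5.67 and 8.62 CPM in M0 KD, against 14.8, 17.2 and 7.90 CPM in M0 NS (log2 fold change -0.98, SE 0.36), and 1 M0 NS library lay inside the M0 KD range. The neutrophil markers moved the same way: all 20 had a lower fitted level in M0 KD than in M0 NS, with a median log2 fold change of -1.18 and 0 called. Their summed level did not overlap between these groups, and their part in the values of Fpr1, Fpr2 and Ltb4r1 was not tested.

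The complement receptors did not separate the M0 groups. C5ar1 was at 284, 312 and 331 CPM in M0 KD, against 303, 322 and 313 CPM in M0 NS (log2 fold change -0.02, 95% interval -0.33 to 0.30). C3ar1 was at 1072, 1063 and 1054 CPM in M0 KD, against 1001, 1126 and 874 CPM in M0 NS (log2 fold change 0.09, 95% interval -0.25 to 0.42). For both genes the M0 KD and M0 NS ranges overlap. Ptafr was at 285, 279.8 and 319 CPM in M0 KD, against 396, 396 and 286 CPM in M0 NS (log2 fold change -0.29, SE 0.14), and these groups overlap too. By edgeR 0 of the 6 receptors and 0% of all genes were called, where 1947 genes had an unadjusted p under 0.05 and the lowest adjusted p over all genes was 0.190. DESeq2 called 2 of the receptors and 221 genes, and edgeR on the M0 libraries alone called 2 receptors and 1103 genes. The ranges of 2 receptors did not overlap, both lower in M0 KD, where 35.1% of all genes did not overlap and 17.9% were apart and lower.

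The difference between the gapmer effect in M1 and that in M0 cells was read from the same fit. It was -4.17 (SE 0.49) on the log2 scale for Fpr1, -2.14 (SE 0.53) for Fpr2, -2.48 (SE 0.25) for C5ar1 and -1.09 (SE 0.26) for C3ar1. For Ptafr it was -0.40 (SE 0.22) and for Ltb4r1 0.83 (SE 0.39). The fitted log2 gapmer effect was thus lower in M1 cells for 5 receptors and closer to 0 there for Ltb4r1. The interval of Ptafr takes in 0, and Ltb4r1 rests on 20 to 35 reads in the M1 libraries. Without M1 KD replicate 6 the difference of Fpr1 was -4.82, and without M1 KD replicate 5 that of Fpr2 was -1.82. Over the fits with 1 library left out, it ran from -4.82 to -3.70 for Fpr1 and from -2.56 to -1.65 for Fpr2.

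M1 KD cells were also set against M0 KD cells, the same 2 states under the MERRICAL gapmer. This comparison shares the M1 KD and M0 KD libraries with the gapmer comparisons above, whose results were known when the receptors were picked. Its p-values for the receptors are therefore not free of that choice. Fpr2 rose, at 28.8 and 48.2 CPM in M1 KD against 5.91, 5.67 and 8.62 CPM in M0 KD (log2 fold change of 2.51, SE 0.39, adjusted p = 1.52e-04, edgeR). C5ar1 fell 42.5-fold, at 6.42 and 8.16 CPM in M1 KD against 284, 312 and 331 CPM in M0 KD (log2 fold change of -5.41, SE 0.24, adjusted p = 9.78e-09, edgeR). C3ar1 fell by 1.90 (SE 0.20, adjusted p = 8.52e-06, edgeR) and Ptafr by 0.65 (SE 0.16, adjusted p = 0.00448, edgeR) on the log2 scale. Fpr1 overlapped between M1 KD, at 2.41 and 5.27 CPM, and M0 KD, at 2.55, 2.75 and 2.80 CPM, with a log2 fold change of 0.49 (SE 0.37). Its sign turned without M1 KD replicate 6, at -0.16. Ltb4r1 was lower in M1 KD with a log2 fold change of -2.41 (SE 0.31). The neutrophil markers moved with Ltb4r1, C5ar1, C3ar1 and Ptafr, and against Fpr2. Of the 20 markers, 18 were called lower and 2 higher, with a median log2 fold change of -3.12. Their part in these results was not tested. In all, 5 receptors were called, 1 higher and 4 lower, where 58.3% of all genes were called. That count holds Ltb4r1, which is given without a p, so nothing is read from it. The ranges of 5 did not overlap, 1 higher and 4 lower, against 74.9% of all genes, 34.4% higher and 40.6% lower. The median log2 fold change was -1.27 over the receptors and -0.11 over all genes.

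Seen over the 4 groups, Fpr1 averaged 3.84 ± 2.02 CPM in M1 KD (SD, n = 2), 168 ± 75.0 CPM in M1 NS, 2.70 ± 0.134 CPM in M0 KD and 6.62 ± 1.10 CPM in M0 NS (SD, n = 3 each). Its levels in M1 KD and M0 KD overlapped and the other neighbours in the order did not. Fpr2 ran in the order M1 NS, M1 KD, M0 NS and M0 KD, with overlap between the M0 groups. C5ar1 and C3ar1 shared another order, with the 2 M0 groups overlapping at the top, then M1 NS, then M1 KD. Ltb4r1 was ordered M0 NS, M0 KD, M1 NS and M1 KD, and the M1 groups overlapped. Ptafr had overlapping ranges in M0 NS, M1 NS and M0 KD, and M1 KD lay below all of them at 188 ± 2.71 CPM (SD, n = 2).

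To compare levels between genes, CPM was divided by the length of the merged exons. In M1 NS, Fpr2 led with a mean of 257 CPM per kb, followed by C3ar1 at 133 and Fpr1 at 127 CPM per kb, which overlapped, then Ptafr at 82.99, C5ar1 at 16.0 and Ltb4r1 at 0.605 CPM per kb. In M1 KD, C3ar1 led at 66.3 CPM per kb, followed by Ptafr at 51.6 and Fpr2 at 29.7 CPM per kb, with Fpr1 at 2.90 and C5ar1 at 2.84 CPM per kb overlapping and Ltb4r1 last at 0.469 CPM per kb. The receptor with the highest level per kb was therefore Fpr2 in M1 NS and C3ar1 in the other 3 groups. In M0 KD, C3ar1 stood at 247, C5ar1 at 120.3 and Ptafr at 81.0 CPM per kb, and in M0 NS at 232, 122 and 98.8 CPM per kb. Fpr2, Ltb4r1 and Fpr1 were the lowest in both M0 groups, between 2.04 and 5.20 CPM per kb in M0 KD and between 4.998 and 10.3 CPM per kb in M0 NS.

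**Figure D3:**
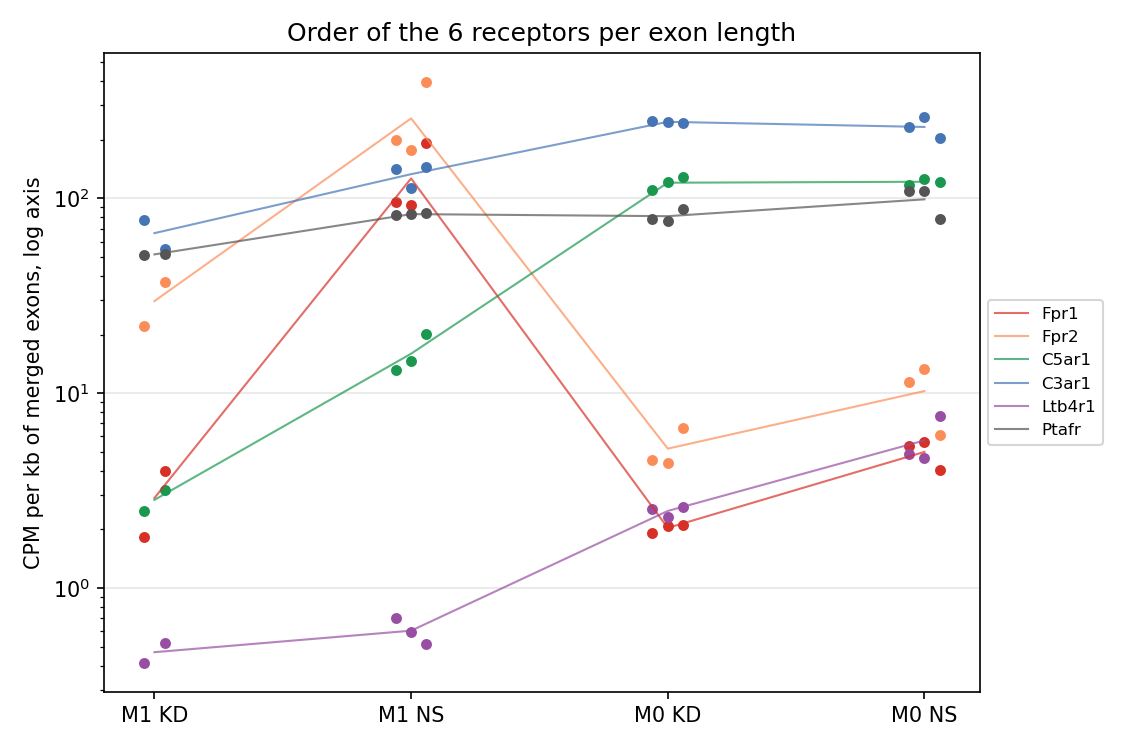
Level of each receptor per kb of merged exon in each group, in CPM per kb on a log axis; points are libraries and lines join the group means. Fpr2 is highest in M1 NS, at a mean of 257 CPM per kb, and C3ar1 in M1 KD, M0 KD and M0 NS.

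The level of Fpr2 is less certain than that of the other receptors, since 408 of its 1295 stretches of 50 bases (31.5%) also occur in other genes, 368 of them in the pseudogene Gm5966. It also shares 48 exon bases with Fpr3, whose counts were 0 to 12 reads in each library. The sources used here do not say how reads that fit several genes were handled. For Fpr1 the share was 0.0784%, for Ptafr 1.64%, and for C5ar1, C3ar1 and Ltb4r1 0%. Fpr-rs3, Fpr-rs4, Fpr-rs6 and Fpr-rs7, other members of the mouse formyl peptide receptor family, were at 0 in all 11 libraries.

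Ratios within a library do not depend on its scaling. For each 100 reads of Fpr2 there were 8.40 and 10.9 reads of Fpr1 in M1 KD, against 48.7, 53.5 and 49.6 in M1 NS. In M0 cells there were 43.0, 48.5 and 32.5 Fpr1 reads in M0 KD, against 48.1, 42.9 and 67.8 in M0 NS. The M1 KD libraries thus stood below the other 9, which spanned 32.5 to 67.8. For each 100 reads of C3ar1 there were 1.92 and 3.46 reads of C5ar1 in M1 KD, against 5.55, 7.78 and 8.23 in M1 NS. That number was 26.5, 29.4 and 31.4 in M0 KD, against 30.2, 28.6 and 35.9 in M0 NS. The 2 M1 groups and the pair of M0 groups formed 3 separate levels for this ratio. Fpr2 is read with the uncertainty given above.

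**Figure D4:**
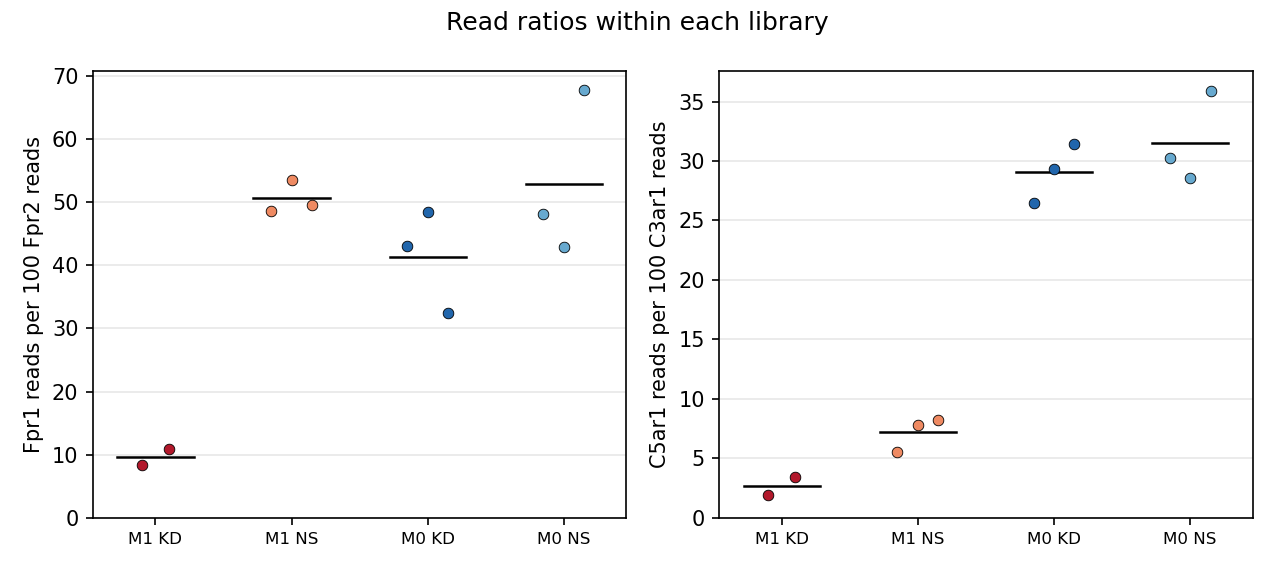
Reads of Fpr1 per 100 reads of Fpr2 and reads of C5ar1 per 100 reads of C3ar1 in each library, by group; points are libraries and bars are group means. M1 KD is lowest in both, at 8.40 and 10.9 for the formyl peptide receptors and 1.92 and 3.46 for the complement receptors.

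The 6 receptors summed to 488 to 559 CPM in M1 KD, 1176 to 1751 CPM in M1 NS, 1653 to 1719 CPM in M0 KD and 1497 to 1875 CPM in M0 NS. C3ar1 made up 54.1% of receptor reads in M1 KD, 40.9% in M1 NS, 63.3% in M0 KD and 58.8% in M0 NS, as means over libraries. Ptafr made up 36.0% in M1 KD, 21.9% in M1 NS, 17.5% in M0 KD and 21.0% in M0 NS. Fpr1 and Fpr2 held 11.5% and 22.8% of receptor reads in M1 NS, and under 1% each in both M0 groups. C5ar1 held 1.41% in M1 KD, 2.90% in M1 NS, 18.4% in M0 KD and 18.5% in M0 NS.

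Profiles were compared by the root mean square difference of log2 CPM over the 11 libraries, after centring each gene. Among 8074 genes with an established symbol and a mean log2 CPM of at least 3, the profile nearest to Fpr1 was that of Fpr2 (0.93), then those of Marco (0.96), a scavenger receptor for bacteria, and Fzd1 (1.15), a Wnt receptor. These are wide distances beside those of the other receptors, although Fpr1 itself varied by 2.43 around its mean. Nearest to Fpr2 were Marco (0.51), Hcar2 (0.57), the receptor of niacin and beta-hydroxybutyrate, and Tspan3 (0.70), a tetraspanin. Marco averaged 216 ± 196 CPM in M1 KD (SD, n = 2), 2278 ± 424 CPM in M1 NS, 27.1 ± 9.40 CPM in M0 KD and 58.5 ± 21.3 CPM in M0 NS (SD, n = 3 each).

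C5ar1 had its nearest profile in Ccr2 (0.18), the receptor of the monocyte chemokine Ccl2, and the scavenger receptor gene Stab1 (0.41) was also among its nearest. Ccr2 averaged 1.46 ± 0.316 CPM in M1 KD (SD, n = 2), 6.68 ± 1.29 CPM in M1 NS, 54.3 ± 9.16 CPM in M0 KD and 57.4 ± 6.91 CPM in M0 NS (SD, n = 3 each). The profile of Ccr2 was thus low in M1 KD and high in both M0 groups, as that of C5ar1 was. Nearest to C3ar1 were Acaca (0.11), the cytosolic acetyl-CoA carboxylase, Wdr3 (0.13) and Exoc4 (0.13), a subunit of the exocyst. Nearest to Ltb4r1 were Chil3 (0.29), a chitinase-like protein of macrophages, Cyp4f18 (0.37), which inactivates leukotriene B4, and Tbc1d8 (0.37). Nearest to Ptafr were Dse (0.12), Tnrc6c (0.12) and Pip4k2b (0.14). C3ar1 and Ptafr varied little around their means, by 0.74 and 0.34. The distance between C5ar1 and C3ar1 was 1.45, and that between Fpr1 and C5ar1 3.64.

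The rest of the pathway was followed in 4 lists with 97 genes, of which 86 passed the filter. The lists were chosen with earlier results of these data known. Nothing is therefore read from their counts, and the p-values of their genes are not free of that choice. In M1 KD against M1 NS, 11 of the 86 rose (12.8%) and 30 fell (34.9%), where 36.8% of all genes were called, 17.6% higher and 19.2% lower. Fits of the 2 groups alone called 27 genes instead of 41. In M1 NS against M0 NS, 33 rose (38.4%) and 29 fell (33.7%), where 26.9% of all genes rose and 28.6% fell. In M1 KD against M0 KD, 26 rose (30.2%) and 35 fell (40.7%), where 26.9% of all genes rose and 31.4% fell. In M0 KD against M0 NS, edgeR called 0 of them, DESeq2 3 and the fit of the M0 libraries alone 18. For the difference of effects, 11 were called higher (12.8%) and 19 lower (22.1%), where 27.3% of all genes were called, 13.1% higher and 14.2% lower.

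Of the 24 genes listed as other chemoattractant or related receptors, 15 passed the filter. Of these, 1 rose and 6 fell in M1 KD against M1 NS, with a median log2 fold change of -0.76. Ccrl2, which binds the chemoattractant chemerin without signalling, was the one that rose, at 1755 and 2816 CPM in M1 KD against 723, 734 and 433 CPM in M1 NS (log2 fold change 1.86, SE 0.26, adjusted p = 2.75e-04, edgeR). Hcar2 fell, at 16.4 and 20.1 CPM in M1 KD against 124, 126 and 120 CPM in M1 NS (log2 fold change -2.76, SE 0.19, adjusted p = 4.26e-06, edgeR). Gpr84, a receptor of medium-chain fatty acids, fell too, at 14.4 and 10.3 CPM in M1 KD against 69.4, 81.6 and 75.0 CPM in M1 NS (log2 fold change -2.61, SE 0.23, adjusted p = 1.44e-05, edgeR). In M1 NS against M0 NS, 6 rose and 6 fell. Hcar2 rose by 5.34 and Ccrl2 by 4.96 on the log2 scale, while Gpr183, the oxysterol receptor, fell by 3.64 and S1pr1, a sphingosine 1-phosphate receptor, fell by 4.75. S1pr1 rests on 58, 30 and 144 reads in M1 NS, and without M1 NS replicate 4 its value was -5.46. Over the fits with 1 library left out, S1pr1 ran from -5.46 to -4.47. Between M1 KD and M0 KD, 5 rose and 5 fell, with Ccrl2 at 7.14, Hcar2 at 3.20, C5ar2 at -5.43 and S1pr1 at -5.57. C5ar2 is the second C5a receptor and lies 2588 bases from C5ar1 on the same strand. It was at 0.329 and 0.402 CPM in M1 KD, 1.29, 1.54 and 1.32 CPM in M1 NS, 15.5, 16.5 and 15.5 CPM in M0 KD and 16.99, 16.8 and 15.5 CPM in M0 NS, low in the same groups as C5ar1.

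Of the 27 ligands and ligand enzymes, 25 were tested. Of these, 5 rose and 4 fell in M1 KD against M1 NS. Lgals3, which encodes the lectin galectin 3, rose, at 5367 and 3080 CPM in M1 KD against 787, 864 and 792 CPM in M1 NS (log2 fold change 2.37, SE 0.22, adjusted p = 1.82e-05, edgeR). Cyp4f13, a cytochrome P450 of the family that oxidises leukotrienes, rose by 1.24 (SE 0.12, adjusted p = 2.10e-05, edgeR). Lpcat2, an enzyme that makes PAF, the ligand of Ptafr, fell, at 61.6 and 123 CPM in M1 KD against 229, 182 and 300.5 CPM in M1 NS (log2 fold change -1.37, SE 0.30, adjusted p = 0.00388, edgeR). Cpd, a carboxypeptidase, fell by 1.503 (SE 0.30, adjusted p = 0.00228, edgeR) on the log2 scale. In M1 NS against M0 NS, 11 rose and 10 fell. Saa3, a serum amyloid A protein, and complement factor B (Cfb) rose by 6.02 and 4.89, and Cyp4f18 and Alox5, the 5-lipoxygenase that starts leukotriene synthesis, fell by 2.98 and 3.31. Between M1 KD and M0 KD, 10 rose and 7 fell, with Saa3 at 6.81, Cfb at 5.10, Cyp4f18 at -2.50 and Alox5 at -3.18. Without M0 KD replicate 4 Saa3 was at 7.48, and without M1 KD replicate 6 Alox5 was at -3.78. Over the fits with 1 library left out, Saa3 ran from 6.53 to 7.48 and Alox5 from -3.78 to -2.70.

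All 32 genes of Gi signalling were tested, and in M1 KD against M1 NS 2 rose and 14 fell, with a median log2 fold change of -0.46. Pik3cg, the catalytic subunit of phosphoinositide 3-kinase gamma, fell, at 7.13 and 7.46 CPM in M1 KD against 47.4, 47.0 and 60.2 CPM in M1 NS (log2 fold change -2.82, SE 0.15, adjusted p = 1.91e-06, edgeR). Among all 15024 genes, none had a lower adjusted p in this comparison. Plcb3, a phospholipase C beta, fell, at 23.0 and 28.01 CPM in M1 KD against 57.7, 66.3 and 54.0 CPM in M1 NS (log2 fold change -1.22, SE 0.15, adjusted p = 9.91e-05, edgeR). The genes called higher were the G protein gamma subunits Gng2 (0.58, adjusted p = 0.0376, edgeR) and Gng5 (0.41, adjusted p = 0.0443, edgeR), and both calls were lost in the fit of the 2 groups alone, at adjusted p = 0.0940 and 0.135. Each was also lost in 8 of the 11 fits with 1 library left out, with the values lowest at 0.42 for Gng2 without M1 NS replicate 2 and 0.19 for Gng5 without M1 KD replicate 5. Gnai2, an alpha subunit of the Gi class, did not pass the test, at 1001 and 963 CPM in M1 KD against 1193, 1340 and 892 CPM in M1 NS. In M1 NS against M0 NS, 13 rose and 5 fell, with Gnb4, a G protein beta subunit, at 3.68, the small GTPase gene Rac2 at 1.70, the kinase gene Mapk3 at -1.29 and Gng2 at -1.40. Between M1 KD and M0 KD cells, 10 rose and 13 fell, with Gnb4 at 3.69, Rac2 at 1.75, the alpha subunit gene Gnaq at -1.38 and Pik3cg at -3.37.

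The 14 desensitisation genes end receptor signalling or sort receptors after uptake. Of these, 3 rose and 6 fell in M1 KD against M1 NS. Rgs1, a regulator that speeds GTP hydrolysis, rose, at 707 and 439 CPM in M1 KD against 231, 157 and 134 CPM in M1 NS (log2 fold change 1.72, SE 0.28, adjusted p = 6.82e-04, edgeR). Rgs2, of the same family, rose, at 68.1 and 60.0 CPM in M1 KD against 27.0, 20.1 and 17.6 CPM in M1 NS (log2 fold change 1.57, SE 0.17, adjusted p = 5.25e-05, edgeR). Arrb1, a beta-arrestin, fell by 1.51 (SE 0.24, adjusted p = 5.38e-04, edgeR) and Snx27, a sorting nexin of receptor recycling, by 1.56 (SE 0.18, adjusted p = 8.31e-05, edgeR). In M1 NS against M0 NS, 3 rose and 8 fell, with Rgs1 at 2.27, Gprasp1 at 0.70, Rgs2 at -3.33 and Rgs18 at -3.41. Gprasp1, which binds receptors bound for lysosomes, was not called with scaling by library size only, at 0.31 (adjusted p = 0.0741, edgeR). Set against M0 KD, M1 KD had 1 that rose and 10 that fell, with Rgs1 at 2.57, Arrb1 at -2.77 and Rgs18 at -4.19. Without M1 KD replicate 5 Rgs18 was at -4.99, and over the fits with 1 library left out it ran from -4.99 to -3.72.

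**Figure D5:**
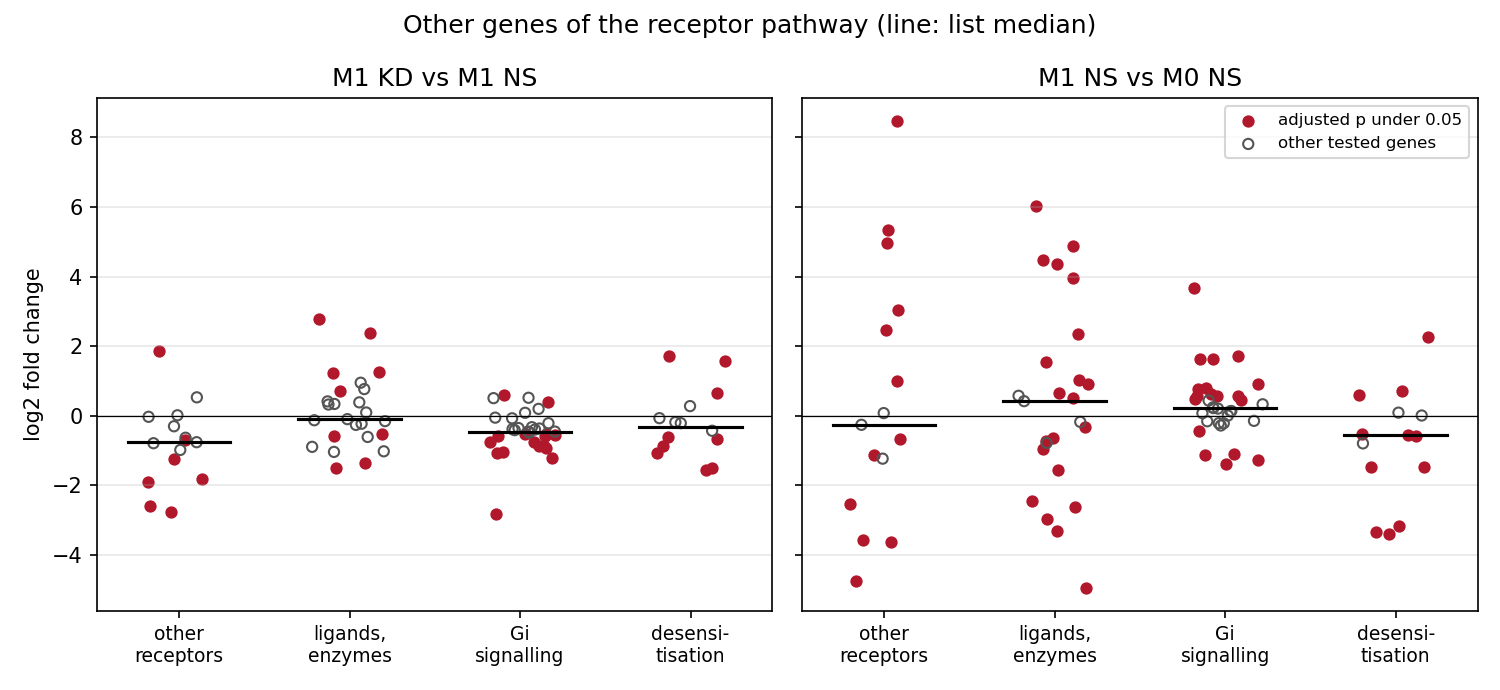
Log2 fold change of each tested gene of the 4 pathway lists in M1 KD against M1 NS and in M1 NS against M0 NS; points are genes, filled where the adjusted p was under 0.05, and bars are list medians. In M1 KD against M1 NS the medians are -0.76 for other receptors, -0.10 for ligands and enzymes, -0.46 for Gi signalling and -0.32 for desensitisation, where all genes have a median of 0.00.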

How the data were processed

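The 6 receptors, the 4 pathway lists and the marker lists were chosen with earlier results of these data known. Per the submitters' processing notes, the authors made the deposited raw counts per gene with Trimmomatic 0.36, the aligner STAR 2.5.2b and the counter featureCounts (Subread 1.5.2) on GRCm38. The sources used here do not give the annotation, the strand setting or the treatment of shared reads. A second, normalized table was not used. One entry with a blank name, at 0.0000965 to 0.000305% of counts, was left out.

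The counts were tested with edgeR 4.0.16 in R 4.3.3: filterByExpr with the 4 groups (minimum count 10, minimum total 15), TMM factors, 1 fit over all 11 libraries (glmQLFit, robust) and the quasi-likelihood F test, with Benjamini-Hochberg adjustment over 15024 genes and calls under 0.05. The SE is the size of the log2 fold change over the root of F, and 95% intervals are 1.96 SE on either side. No label says that replicates came from separate cultures. The p-values therefore reflect library-to-library spread alone, and that spread may be technical. No 2 libraries held identical counts, and the procedure was tested on simulated data. Receptors were given in every comparison. From each pathway list and comparison, up to 2 called genes with the largest rise and 2 with the largest fall were named if their mean log2 CPM was 1 or more. For each receptor the 3 nearest profiles were named if that mean was 3 or more, except 1 gene that is not reported here. Gnai2, Alox5ap, Lta4h, Ltc4s, C3, Cmklr1, and C5ar2 beyond the M1 KD against M0 KD comparison, were named after their values were seen. Log2 CPM used a prior count of 2. Gene positions came from GENCODE M21 and promoters from RefSeq, in which all 6 receptors matched 1 promoter each. Alternatives were DESeq2 1.42.0, other scaling factors, no filter, the robust option off, the 2 groups alone, a replicate block, and each library left out. Figures were drawn with matplotlib 3.10.9.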

Additional observations from a re-analysis of the deposited data

Results flagged for a closer look

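The gapmer effect (KD against NS) was compared between M1 and M0 cells for 36 genes, the 6 receptors and the pathway genes named in the report, and 21 were past the threshold of edgeR's test of the difference, as were 27.3% of all genes. The receptors were picked with results known and the pathway genes were named for calls in comparisons that share these libraries, so nothing is read from that count. The values are the log2 effect in M1 minus that in M0. For the receptors they were -4.17 for Fpr1, -2.14 for Fpr2, -2.48 for C5ar1 and -1.09 for C3ar1, a description without a p. Without M1 KD replicate 5 that of Fpr2 was -1.82 and no longer past the threshold.

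Among the other receptors the difference was -1.86 for C5ar2, -1.94 for Gpr84, -2.13 for Hcar2 and 2.18 for Ccrl2. Among ligands and enzymes it was 2.46 for Lgals3, 1.422 for Cyp4f13, -1.85 for Cpd and -1.09 for Pla2g4a, the cytosolic phospholipase A2 that frees arachidonate. In Gi signalling it was -2.93 for Pik3cg, -1.10 for Gnaq, -0.94 for Plcb3, 0.83 for Mapk3 and 0.61 for Gng5. The differences of Mapk3 and Gng5 were not called without M1 KD replicate 5, at 0.46 and 0.40, nor with scaling by library size only, at 0.74 and 0.51. Of the 11 fits with 1 library left out, 5 did not call Mapk3 and 8 did not call Gng5. In the desensitisation list it was 1.204 for Rgs2, 0.89 for Rgs10, -1.30 for Arrb1 and -1.67 for Snx27. That of Rgs10 was not called without M1 KD replicate 5, at 0.67. Groups of 2 and 3 libraries are too small for a check of single outlying libraries.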

How the results depend on the processing

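In M0 KD against M0 NS, genes called were 0 by edgeR over all libraries and reached 221 with DESeq2, 385 without a filter on low counts and 1103 with the 2 groups alone. Receptors called reached 2, 3 and 2 in these 3 fits, and pathway genes 3, 11 and 18. With 1 library left out, genes called ranged from 0 to 1, with 1 without M1 NS replicate 4. In M1 KD against M1 NS the 2 groups alone gave 3104 genes and 27 pathway genes, and leaving out 1 library 3658 to 5796 genes, the lowest without M1 KD replicate 5. The causes were not tested. No called value of a receptor or named gene changed sign in any of the 18 fits. Calls were lost under some alternative for 6 of the 61 named pathway results (Gprasp1, Gng2, Mapk3, Rgs10, and Gng5 in 2 comparisons).

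With scaling by library size only, all genes had a median log2 fold change of -0.42 in M1 NS against M0 NS, -0.59 in M1 KD against M0 KD and -0.12 for the difference of effects. Of the calls, 26.7% were then higher in place of 48.5%, 25.1% in place of 46.1% and 38.5% in place of 48.0%. Ltb4r1 moved to -3.63 in M1 NS against M0 NS and -2.90 in M1 KD against M0 KD. It was not alone in this. The median over the receptors moved from -0.53 to -0.91 in M1 NS against M0 NS and from -1.27 to -1.76 in M1 KD against M0 KD.

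Same-numbered libraries correlated at -0.0825 to 0.0899 between M1 NS and M0 NS and 0.0221 to 0.135 between M0 KD and M0 NS, where 3 of 3 correlated best with their own number. Not every pair passed 0.1, so the numbers were not taken to pair libraries, and whether they do is not known. With the number as a replicate block, 8048 genes, 5 receptors and 58 pathway genes were called in M1 NS against M0 NS, and 0 of each in M0 KD against M0 NS. M1 KD shares no number with the others. The depth limits Ltb4r1 in M1 cells, at 20 to 35 reads.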

Other observations

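The enzymes that make leukotrienes, chosen here after their values were seen, were in part higher in M1 KD than in M1 NS. Alox5ap, the 5-lipoxygenase-activating protein, was at 149 and 102 CPM in M1 KD, against 37.9, 49.5 and 73.8 CPM in M1 NS (log2 fold change 1.22, SE 0.24, adjusted p = 0.00232, edgeR). Lta4h, which makes leukotriene B4, was at 33.1 and 32.6 CPM in M1 KD, against 16.4, 17.97 and 25.6 CPM in M1 NS (log2 fold change 0.72, SE 0.18, adjusted p = 0.00789, edgeR). Ltc4s, the leukotriene C4 synthase, also rose, by 2.78 (SE 0.52, adjusted p = 0.00166, edgeR), at levels under 1 CPM in all M1 libraries. Alox5 did not pass the test, at -1.02 (SE 0.54, adjusted p = 0.155, edgeR). All 4 genes fell in M1 NS against M0 NS, Alox5 by 3.31, Alox5ap by 2.62, Lta4h by 1.56 and Ltc4s by 4.94 on the log2 scale (adjusted p of at most 2.65e-05, edgeR).

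C3, the precursor of the ligand of C3ar1, was at 2489 and 4130 CPM in M1 KD, 6853, 7394 and 6202 CPM in M1 NS, 122, 135 and 289.7 CPM in M0 KD and 361, 429 and 203 CPM in M0 NS. It rose in M1 NS against M0 NS (log2 fold change 4.37, SE 0.40, adjusted p = 2.08e-06, edgeR), where its receptor fell. In M1 KD against M1 NS its log2 fold change of -1.04 did not pass the test (adjusted p = 0.0593, edgeR). Cmklr1, the signalling receptor of chemerin, fell in M1 KD against M1 NS, where Ccrl2 rose (log2 fold change -1.82, SE 0.29, adjusted p = 5.99e-04, edgeR). C3 and Cmklr1 were, like the enzymes above, chosen after their values were seen, and their p-values are not free of that choice.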
